A study of Mus musculus with 12 samples.

Results

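Blood and lymphatic vessels of the colon were followed through 35 genes, chosen by name from the 54532 rows of the deposited gene table. They comprised 5 leukocyte adhesion genes (Sele, Selp, Icam1, Vcam1 and Madcam1), 16 genes of endothelial identity, 9 angiogenic genes, 3 lymphatic genes and 2 genes of mural cells, which wrap the vessel wall. RNA was taken from the whole colon of C57BL/6N mice and sequenced as polyadenylated RNA, with 12 libraries in 4 groups of 3. Tmem173fl/fl mice carried floxed alleles of Tmem173, the gene of the innate DNA sensing adaptor STING, without Cre, and Tmem173iΔmye mice were Tmem173fl/fl mice that also carried Lyz2-Creert2. Both genotypes received 5 tamoxifen injections before DSS, and the study's methods give an age of 6 to 8 weeks for mice on DSS. Colitic mice of each genotype drank dextran sodium sulfate (DSS), a polymer that injures the colonic epithelium, for 7 days and water for 1 day, and untreated mice drank water throughout. The Lyz2 promoter drives Cre in macrophages, neutrophils and other myeloid cells and not in endothelium, so that the vessel cells of both genotypes kept Tmem173 by design.

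Endothelial cells line all vessels and hold their junctions together through VE-cadherin (Cdh5), PECAM-1 (Pecam1), ESAM and claudin 5. In inflamed venules they display selectins, on which leukocytes roll, and immunoglobulin-like ligands of leukocyte integrins, on which leukocytes arrest, and MAdCAM-1 is the gut ligand of integrin α4β7. Vessel growth is governed by receptors for VEGF (Flt1, Kdr, Flt4) and for angiopoietins (Tek), and sprouting tip cells are known for Angpt2, Esm1 and Apln. The comparisons asked how these genes respond to DSS in each genotype, whether the genotypes differ with or without DSS, and whether adhesion genes behave like the other vessel genes.

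Promoters of 22 of the 35 genes, as 27 windows, were matched by symbol in RefSeq sequence of build GRCm38.p6. The 250 bases before the annotated start are printed for 3 adhesion genes, which hold a match to a motif of an inflammatory transcription factor, and for Esm1, the gene whose DSS response differed most between genotypes. Capitals in Sele and Selp mark exact matches to the AP-1 motif TGANTCA, and those in Madcam1 to the 10-base NF-κB motif GGGRNNYYCC. Both were searched on both strands, with R for A or G, Y for C or T and N for any base. The AP-1 match began 73 bases before the start of Sele and 139 bases before that of Selp, and those of NF-κB began 83 and 70 bases before the start of Madcam1. The Esm1 window held a match to neither motif and is printed in lower case.
Sele, chr1:164047984-164048233, plus strand: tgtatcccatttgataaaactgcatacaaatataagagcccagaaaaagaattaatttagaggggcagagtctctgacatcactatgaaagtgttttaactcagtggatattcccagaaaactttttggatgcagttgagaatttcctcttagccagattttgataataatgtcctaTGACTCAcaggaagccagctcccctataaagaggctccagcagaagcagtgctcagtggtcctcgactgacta
Selp, chr1:164115014-164115263, plus strand: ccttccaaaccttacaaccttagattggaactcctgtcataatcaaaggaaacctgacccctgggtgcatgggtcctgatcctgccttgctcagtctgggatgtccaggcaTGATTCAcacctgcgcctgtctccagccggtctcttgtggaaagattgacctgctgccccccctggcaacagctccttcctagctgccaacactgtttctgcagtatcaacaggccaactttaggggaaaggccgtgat
Madcam1, chr10:79664309-79664558, plus strand: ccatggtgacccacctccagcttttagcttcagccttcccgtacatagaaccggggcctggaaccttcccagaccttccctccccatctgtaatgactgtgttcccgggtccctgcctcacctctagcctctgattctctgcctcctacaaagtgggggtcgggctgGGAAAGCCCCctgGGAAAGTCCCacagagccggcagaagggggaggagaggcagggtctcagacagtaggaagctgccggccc
Esm1, chr13:113209409-113209658, plus strand: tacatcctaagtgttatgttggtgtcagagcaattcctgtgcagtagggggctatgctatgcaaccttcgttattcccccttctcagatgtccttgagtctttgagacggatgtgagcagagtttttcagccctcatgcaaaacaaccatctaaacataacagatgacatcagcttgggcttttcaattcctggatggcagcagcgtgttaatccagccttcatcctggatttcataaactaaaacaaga

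Of the 4 adhesion genes with a window, 2 held the AP-1 motif and 1 the NF-κB motif. The NF-κB motif also stood 74 bases before the start of Kdr and 92 bases before that of Flt1. Among all 32851 promoter windows of the same length, 6.75% held the AP-1 motif and 7.25% the NF-κB motif. A match describes the letters of the window and says nothing of binding. The lack of an exact match does not show that a window lacks a site of a looser form.

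Levels are given as FPKM, fragments scaled to gene length and library size, which allows levels to be compared between genes. A gene was called when edgeR gave a Benjamini-Hochberg adjusted p under 0.05 over the 24102 genes tested and the log2 fold change was 1 or more in size. All 35 genes passed the filter on low values, which asked for 3 or more libraries at 0.1 FPKM or above, though Sele passed only through the colitic groups, in which it was high. Library totals ran from 13823237 to 18718915 counts. The 6 genes set aside as markers of endothelium (Pecam1, Cdh5, Tie1, Erg, Kdr and Emcn) and the 3 of lymphatic endothelium were detected in every library, and the geometric mean of the 6 ran from 1.67 to 2.26 FPKM in untreated mice. Tmem173 was at 18.6, 19.2 and 16.6 FPKM in colitic Tmem173fl/fl mice and at 20.7, 10.2 and 13.2 FPKM in colitic Tmem173iΔmye mice. The fitted log2 difference was -0.28 with an edgeR adjusted p of 0.602. A loss of its transcript was thus not detected in these libraries of whole colon. In relative mRNA levels of colon, the study itself reported a smaller rise of Tmem173 in colitic Tmem173iΔmye mice. Here replicate 1 of the colitic Tmem173iΔmye group exceeded every colitic Tmem173fl/fl library. In such bulk RNA, fewer vessel cells and less RNA per vessel cell cannot be told apart.

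Other cells of the tissue moved with the groups, and their part in the results was not tested. The summed FPKM of 9 epithelial markers was 5907 to 7311 in untreated and 2189 to 3864 in colitic Tmem173fl/fl mice, against 6243 to 7666 and 4747 to 5633 in Tmem173iΔmye mice. That of 8 fibroblast markers was 179 to 219 and 1142 to 1399 in Tmem173fl/fl mice, against 184 to 236 and 352 to 483 in Tmem173iΔmye mice. Macrophage markers (9 genes) summed to 108 to 133 and 398 to 593 in Tmem173fl/fl mice and to 105 to 174 and 130 to 327 in Tmem173iΔmye mice, with Marco at 0 FPKM in the mean of untreated Tmem173fl/fl mice. Platelet markers (7 genes, with Gp1bb at 0 in every group) summed to 1.8 to 5.6 and 56.1 to 87.4 in Tmem173fl/fl mice and to 5.1 to 7.83 and 9.25 to 11.9 in Tmem173iΔmye mice. Smooth muscle markers (7 genes) differed less, at 1024 to 1392 and 949 to 1121 against 1258 to 1509 and 852 to 1195. Red blood cell markers (5 genes) summed to 4.8 to 8.22 and 192 to 406 in Tmem173fl/fl mice and to 5.97 to 73.9 and 29.3 to 35.6 in Tmem173iΔmye mice, and all 5 were called lower in colitic Tmem173iΔmye mice (median log2 difference -3.10), where 1.99% of all tested genes were. Neutrophil markers (7 genes) summed to 1.47 to 7.93 and 467 to 700 in Tmem173fl/fl mice and to 3.07 to 10.2 and 20.3 to 128 in Tmem173iΔmye mice, with 5 of 7 called lower between the colitic genotypes.

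Selp encodes P-selectin, which endothelial cells and platelets store and bring to their surface on activation (chromosome 1, 164115264 to 164150026). It stood at 0.217, 0.134 and 0.209 FPKM in untreated and at 12, 10.4 and 17.1 FPKM in colitic Tmem173fl/fl mice. In Tmem173iΔmye mice it stood at 0.175, 0.119 and 0.322 FPKM without DSS and at 4.8, 3.16 and 1.64 FPKM with DSS. Every colitic library was above every untreated library of its genotype, and every colitic Tmem173iΔmye library was below every colitic Tmem173fl/fl library. The log2 fold change by DSS was 6.14 ± 0.28 (SE, edgeR adjusted p = 7.0e-07) in Tmem173fl/fl mice, the highest of the 35 genes there, and 3.93 ± 0.51 (adjusted p = 0.00548) in Tmem173iΔmye mice. The platelet markers above moved in the same direction.

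Sele encodes E-selectin, which endothelial cells make anew when cytokines activate them (chromosome 1, 164048234 to 164057677). It stood at 0.0758, 0.0905 and 0.0211 FPKM in untreated and at 1.69, 1.15 and 2.04 FPKM in colitic Tmem173fl/fl mice. In untreated Tmem173iΔmye mice it was at 0.0204, 0 and 0 FPKM, and in colitic ones at 1.37, 0.464 and 0.468 FPKM. Its counts summed to 8 and 246 in the untreated and colitic groups of Tmem173fl/fl mice. Per library total scaled by TMM, their ratio was 24.9 (95% exact interval 12.4 to 58.3, for counting error only). The sums in Tmem173iΔmye mice were 1 and 101, a ratio of 108 on the same scale (19 to 4308). The intervals of the ratios overlapped, and the single read in untreated Tmem173iΔmye mice leaves the upper end of its own interval very wide.

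Vcam1, the endothelial and stromal ligand of integrin α4β1 (chromosome 3, 116109949 to 116129688), stood at 2.15, 1.37 and 2.1 FPKM in untreated and at 13.9, 22.4 and 9.82 FPKM in colitic Tmem173fl/fl mice. In Tmem173iΔmye mice it stood at 1.67, 2.52 and 1.7 FPKM and, with DSS, at 10.4, 6.84 and 3.34 FPKM. Both genotypes thus separated completely by treatment, whereas the colitic groups overlapped with each other. Its log2 fold change by DSS was 3.06 ± 0.31 (edgeR adjusted p = 5.4e-05) in Tmem173fl/fl and 1.79 ± 0.36 (adjusted p = 0.0349) in Tmem173iΔmye mice.

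Madcam1, the mucosal addressin of gut venules (chromosome 10, 79664559 to 79668537), stood at 2.71, 1.88 and 1.88 FPKM in untreated and at 16.7, 16.7 and 10.4 FPKM in colitic Tmem173fl/fl mice. In Tmem173iΔmye mice it stood at 2.35, 1.71 and 1.57 FPKM and, with DSS, at 15.4, 4.44 and 4.91 FPKM. Replicate 1 of the colitic Tmem173iΔmye group lay within the range of colitic Tmem173fl/fl mice and the other two below it. The summed FPKM of 7 markers of B cells and follicle stroma, most of it from Cxcl13 in colitic mice, was 217, 75 and 74.8 in the same order of colitic Tmem173iΔmye libraries and 164 to 407 in colitic Tmem173fl/fl mice, and the part of follicles was not tested. The log2 fold change by DSS was 2.78 ± 0.27 (edgeR adjusted p = 4.0e-05) and 2.11 ± 0.49 (adjusted p = 0.058), respectively.

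Icam1, a ligand of leukocyte β2 integrins that many cell types express (chromosome 9, 21015985 to 21028817), stood at 5.1, 3.61 and 3.7 FPKM in untreated and at 16.4, 18.7 and 11.6 FPKM in colitic Tmem173fl/fl mice. In Tmem173iΔmye mice it stood at 3.63, 3.76 and 5.49 FPKM and, with DSS, at 12.1, 7.01 and 2.84 FPKM. Replicate 5 of the colitic Tmem173iΔmye group was below every untreated library of its genotype, and the groups overlapped. The log2 fold change by DSS was 1.93 ± 0.21 (edgeR adjusted p = 9.2e-05) in Tmem173fl/fl and 0.75 ± 0.42 (adjusted p = 0.443) in Tmem173iΔmye mice. An annotated transcript on the opposite strand shares 511 of the 4360 exon bases of Icam1, and 438 and 186 of the 4413 exon bases of Selp are shared in the same way with a pair of others. The strand setting of the counting is not given in the sources used here.

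**Figure D1:**
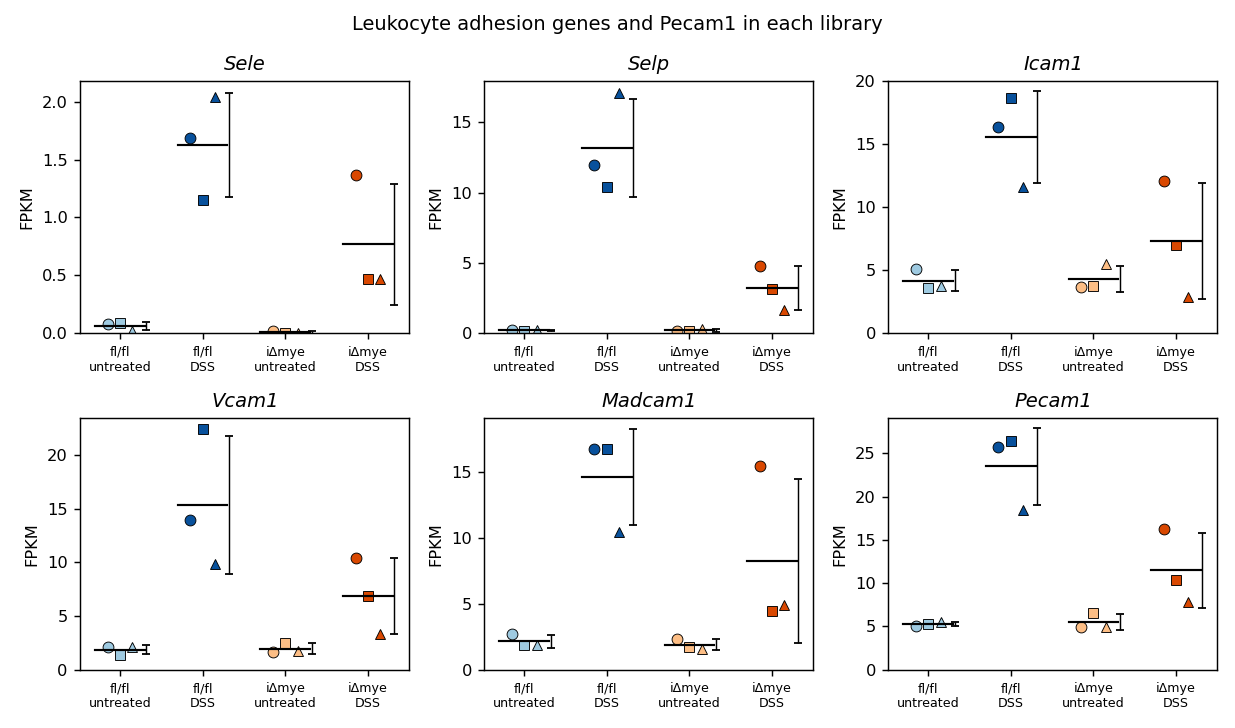
FPKM (linear axis from 0) of the 5 adhesion genes and of Pecam1 in each of the 12 libraries, by genotype and treatment, with circle, square and triangle for the 3 libraries of a group, a bar for the group mean and a whisker for the SD. Colitic Tmem173fl/fl libraries lay above every untreated library in all 6 panels, and of the colitic Tmem173iΔmye libraries replicate 1 (circle) was highest in each panel.

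In Tmem173fl/fl mice all 35 genes were higher with DSS, where 14.9% of all tested genes were called higher. The median log2 fold change was 2.44 over the 35 genes and 0.03 over all genes tested. By role the medians were 3.06 for adhesion, 2.42 for identity, 2.55 for angiogenic, 2.39 for lymphatic and 1.62 for mural genes. In 34 of 35 genes every colitic library exceeded every untreated one, which held for 25.1% of all tested genes, and the exception was Icam2. The count of called genes ran from 32 to 35 when each library was left out, where 12.7% to 15% of all tested genes were called higher. The calls of Aplnr, Icam2 and Cd34 were those lost, and that of Aplnr was lost without any of the untreated libraries or without colitic replicate 1.

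In Tmem173iΔmye mice all 35 fitted log2 fold changes were above 0, with a median of 1.02, and 3 genes were called higher with DSS, against 1.48% of all tested genes. The 3 were Sele, Selp and Vcam1, all adhesion genes, and none of the 30 others passed. Sele could enter the test only by being higher with DSS and is no support for a contrast of adhesion with other genes, which leaves Selp and Vcam1 among the 4 other adhesion genes. At an unadjusted p under 0.05 in edgeR, 26 of the 35 genes were higher, where 3749 of the 24102 tested genes passed in either direction. In 26 genes the colitic and untreated libraries did not overlap, which held in this direction for 12.1% of all tested genes. DESeq2 called 15 genes, against 3.3% of all tested genes in this direction, of which 4 were adhesion, 7 identity, 2 angiogenic and 2 lymphatic genes. The count fell to 0 without untreated replicate 1 or without untreated replicate 2, was 1 without untreated replicate 3, and rose to 20 without colitic replicate 5. The share of all tested genes called higher moved with it, at 0.212%, 0.166%, 0.178% and 3.95%. Over these fits and those without colitic replicate 1 or 2, 6 in all, Selp was called in 4, Sele in 3 and Vcam1 in 1, with log2 fold changes of 3.53 to 4.44 for Selp, 5.65 to 8.17 for Sele and 1.37 to 2.15 for Vcam1. Those 20 were 5 adhesion, 7 identity, 5 angiogenic and 3 lymphatic genes.

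Angpt2, the angiopoietin that destabilizes vessels and is made by activated endothelium (chromosome 8, 18690263 to 18741562), had the highest DSS fold change of the angiogenic genes in Tmem173fl/fl mice. It stood at 0.419, 0.304 and 0.715 FPKM in untreated and at 9.49, 8.1 and 9.52 FPKM in colitic Tmem173fl/fl mice. In Tmem173iΔmye mice it stood at 0.578, 0.666 and 0.497 FPKM and, with DSS, at 1.56, 1.61 and 1.24 FPKM. The 3 colitic Tmem173iΔmye libraries were close to one another, above every untreated library and far below every colitic Tmem173fl/fl library. The log2 fold change by DSS was 4.24 ± 0.29 (edgeR adjusted p = 5.4e-06) in Tmem173fl/fl and 1.32 ± 0.33 (adjusted p = 0.0786) in Tmem173iΔmye mice.

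Esm1, endocan, a proteoglycan secreted by tip cells under VEGF (chromosome 13, 113209659 to 113218098; its promoter is printed above), stood at 0.246, 0.377 and 0.615 FPKM in untreated and at 5.27, 3.5 and 6.92 FPKM in colitic Tmem173fl/fl mice. In Tmem173iΔmye mice it stood at 0.735, 0.976 and 0.395 FPKM without DSS and at 0.848, 0.761 and 0.537 FPKM with DSS. The latter groups overlapped, with a fitted log2 change of 0.01 ± 0.47 (edgeR adjusted p = 0.997), against 3.65 ± 0.39 (adjusted p = 7.3e-05) in Tmem173fl/fl mice.

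Apln, the ligand of the apelin receptor, stood at 0.701, 0.335 and 0.37 FPKM in untreated and at 4.41, 1.32 and 6.63 FPKM in colitic Tmem173fl/fl mice, and at 0.621, 0.595 and 0.376 and then 0.678, 1.11 and 0.451 FPKM in Tmem173iΔmye mice. Its receptor Aplnr was the least changed of the 35 genes in Tmem173fl/fl mice (log2 fold change 1.13 ± 0.37, edgeR adjusted p = 0.0391). Among the receptors, Tie1 stood at 2.09, 2.02 and 2.2 FPKM in untreated and 14, 15.2 and 10.8 FPKM in colitic Tmem173fl/fl mice, against 2.39, 2.99 and 2.63 and then 6.92, 4.43 and 3.83 FPKM in Tmem173iΔmye mice. Flt1, VEGF receptor 1, stood at 1.19, 0.908 and 0.977 and then 5.71, 6.13 and 5.9 FPKM in Tmem173fl/fl mice, against 1.19, 1.03 and 0.832 and then 2.34, 2.06 and 1.25 FPKM in Tmem173iΔmye mice. For both receptors the colitic Tmem173iΔmye libraries lay between the untreated and the colitic Tmem173fl/fl libraries. Eng, the TGF-β co-receptor endoglin, which macrophages and fibroblasts also express, stood at 7.58, 7.25 and 6.9 and then 43.3, 42.2 and 29.8 FPKM in Tmem173fl/fl mice, and at 6.78, 6.52 and 6.8 and then 23.6, 12.3 and 9.1 FPKM in Tmem173iΔmye mice.

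Of the identity genes, Cdh5 stood at 3.31, 2.63 and 3.34 FPKM in untreated and 23, 24.1 and 18.6 FPKM in colitic Tmem173fl/fl mice, against 4.2, 3.47 and 3.21 and then 11.1, 6.85 and 5.23 FPKM in Tmem173iΔmye mice. Nos3, endothelial nitric oxide synthase, stood at 0.445, 0.399 and 0.579 and then 4.57, 4.26 and 3.87 FPKM in Tmem173fl/fl mice, against 0.602, 1.19 and 0.816 and then 2.05, 1.32 and 1.23 FPKM in Tmem173iΔmye mice. Every colitic Tmem173iΔmye library of both genes was below every colitic Tmem173fl/fl library. Of the 4132 exon bases of Nos3, 1040 and 294 are shared with genes on the opposite strand, so that its reads may include theirs.

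Robo4, a guidance receptor that steadies the endothelial barrier, stood at 1.12, 0.957 and 0.984 FPKM and then 7.28, 7.47 and 6.79 FPKM in Tmem173fl/fl mice, against 0.827, 0.993 and 0.881 and then 2.56, 1.84 and 1.66 FPKM in Tmem173iΔmye mice. Erg, an ETS factor that maintains endothelial identity, stood at 0.785, 0.59 and 1.04 and then 5.98, 5.29 and 6.01 FPKM, against 0.701, 0.827 and 0.802 and then 2.26, 1.77 and 1.67 FPKM. For this pair no library of one colitic genotype reached the range of the other. Vwf, the clotting factor carrier stored in endothelium and platelets, stood at 1.37, 1.8 and 1.67 and then 12.4, 11.9 and 9.29 FPKM, against 1.61, 1.69 and 2.04 and then 6.06, 3.77 and 2.4 FPKM. Sox17, a factor of arterial endothelium, stood at 0.308, 0.359 and 0.334 and then 2.28, 2.04 and 1.49 FPKM, against 0.224, 0.405 and 0.595 and then 0.775, 0.836 and 0.993 FPKM. Of its 4772 exon bases, 804 are shared with a gene on the opposite strand. The other 10 identity genes had DSS log2 fold changes from 1.19 (Cd34, also a gene of fibroblasts) to 2.55 (Egfl7) in Tmem173fl/fl mice and from 0.18 (Cd34) to 1.15 (Ackr1) in Tmem173iΔmye mice. Ackr1 shares 361 of its 1405 exon bases with Cadm3 on the same strand. Egfl7 hosts miR-126, an endothelial microRNA whose mature form was not measured here. Its RefSeq sequence, with the seed in capitals, is given to identify it.
mmu-miR-126a-3p, chr2:26591402-26591423, plus strand: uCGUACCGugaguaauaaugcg

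Of the lymphatic genes, Lyve1, a hyaluronan receptor that some macrophages also carry, stood at 6.75, 7.59 and 10.3 FPKM in untreated and at 41.3, 47.9 and 36.8 FPKM in colitic Tmem173fl/fl mice, against 8.61, 12.7 and 9.2 and then 28, 15.7 and 17 FPKM in Tmem173iΔmye mice. Prox1, the master factor of lymphatic fate, stood at 0.333, 0.731 and 0.746 and then 3.16, 3.45 and 2.77 FPKM, against 0.565, 0.788 and 0.628 and then 1.98, 1.78 and 1.21 FPKM. Flt4, VEGF receptor 3, stood at 2.07, 2.02 and 2.06 and then 12.7, 13.1 and 8.04 FPKM, against 1.81, 1.97 and 2.12 and then 7.88, 3.38 and 2.67 FPKM. All 3 genes thus rose in Tmem173fl/fl mice (log2 fold changes 2.37 to 2.48), and in Tmem173iΔmye mice, with fitted values of 0.97 to 1.31, none was called, Prox1 being nearest with an edgeR adjusted p of 0.0504. The mural genes had the lowest median by role in both genotypes. Mcam (CD146), also a gene of smooth muscle and endothelium, stood at 11.4, 11.4 and 11.1 and then 38.1, 34.6 and 34.1 FPKM in Tmem173fl/fl mice, against 12.5, 12.5 and 11.6 and then 19.7, 16.5 and 15.3 FPKM in Tmem173iΔmye mice. Rgs5, a pericyte regulator of G protein signalling, stood at 20.7, 32.1 and 37.4 and then 90.1, 84.5 and 90.9 FPKM, against 41.5, 51.7 and 19.6 and then 65.4, 71.7 and 49.6 FPKM, with overlap by treatment in Tmem173iΔmye mice.

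**Figure D2:**
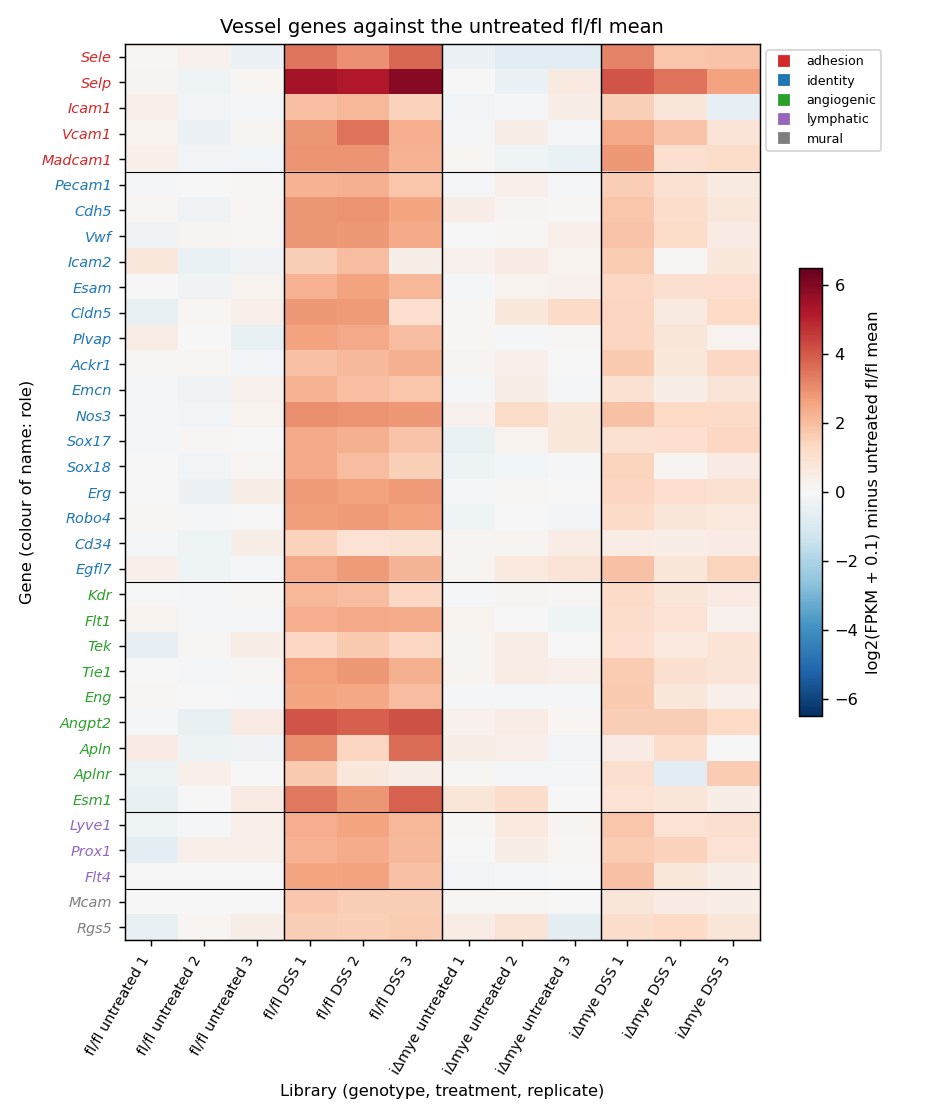
Level of the 35 genes (rows, with the colour of the name giving the role) in the 12 libraries (columns), as log2(FPKM + 0.1) minus the mean of the untreated Tmem173fl/fl libraries, on a scale from blue (below) to red (above). The colitic Tmem173fl/fl columns are red in nearly all rows, and in the colitic Tmem173iΔmye columns replicate 1 is the highest of its group for 29 of 35 genes.

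Without DSS none of the 35 genes was called between genotypes, as none of the 24102 genes was (0% called), and the fitted log2 difference (Tmem173iΔmye minus Tmem173fl/fl) was above 0 for 25 genes and below 0 for 10. In edgeR 2 of the 35 genes and 720 of all genes had an unadjusted p under 0.05. DESeq2 called 0 of the 35, where it called 0.0124% of all tested genes in either direction. Nos3, Tie1 and Mcam were higher and Eng lower in every Tmem173iΔmye library, where 3.78% and 3.5% of all tested genes did not overlap in these directions. Sele, with 8 counts in one untreated group and 1 in the other, was too low for a comparison of levels.

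In colitis all 35 genes had a fitted log2 difference below 0, with a median of -1.17 against 0.02 over all genes tested. Of the 35 genes 13 were called lower in Tmem173iΔmye mice, where 1.99% of all tested genes were. They were 1 of 5 adhesion genes (Selp), 7 of 16 identity genes (Cdh5, Esam, Plvap, Emcn, Nos3, Erg and Robo4), 4 of 9 angiogenic genes (Flt1, Tie1, Angpt2 and Esm1), 0 of 3 lymphatic genes and 1 of 2 mural genes (Mcam). In 28 genes every colitic Tmem173iΔmye library was below every colitic Tmem173fl/fl library, against 15.8% of all tested genes. The 7 genes with overlap were 4 of the 5 adhesion genes (Sele, Icam1, Vcam1 and Madcam1), Icam2, Cldn5 and Aplnr, so that 27 of the 30 other vessel genes separated the genotypes completely.

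The largest differences were the log2 values of Esm1 (-2.84 ± 0.36, edgeR adjusted p = 0.0137) and Angpt2 (-2.59 ± 0.22, adjusted p = 0.00511), or 7.16-fold and 6.03-fold lower. Selp followed among called genes (-2.02 ± 0.37, adjusted p = 0.0316). Robo4 (-1.80), Flt1 (-1.63) and Erg (-1.57) came next, with adjusted p between 0.0126 and 0.0181. Apln was 5.40-fold lower and was not called (adjusted p = 0.063). For the adhesion genes without a call the fitted difference was -1.14 ± 0.42 for Vcam1, -1.06 ± 0.44 for Icam1, -1.06 ± 0.49 for Sele and -0.80 ± 0.48 for Madcam1 (edgeR adjusted p from 0.18 to 0.386). These lie near those of many other vessel genes, with wider errors, and do not show that the adhesion genes were equal between genotypes.

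The count of 13 changed with single libraries, as did the count over all genes. It was 1 without colitic Tmem173fl/fl replicate 1, 5 without replicate 2 and 3 without replicate 3 of that group, where 0.0913%, 0.585% and 0.373% of all tested genes were called lower. It was 24 without colitic Tmem173iΔmye replicate 1, 1 without replicate 2 and 8 without replicate 5, where 4.6%, 0.108% and 1.39% of all tested genes were called lower. The fitted differences of the 13 genes stayed below 0, from -2.44 to -1.71 for Selp, from -1.85 to -1.25 for Plvap, from -1.84 to -1.27 for Cdh5, from -2.01 to -1.69 for Robo4, from -1.72 to -1.50 for Erg, from -1.27 to -1.01 for Esam and from -1.14 to -0.96 for Mcam. Angpt2 was called in all 6 of these fits, Robo4 and Esm1 in 4 of 6. Replicate 1 of the colitic Tmem173iΔmye group had the highest level of its group for 29 of 35 genes and replicate 5 the lowest for 21. The summed FPKM of the 35 genes was 344, 241 and 199 in these libraries, 493 to 614 in colitic Tmem173fl/fl mice and 121 to 158 in untreated mice of both genotypes. Neutrophil markers summed to 95.9, 128 and 20.3 FPKM and macrophage markers to 327, 246 and 130 FPKM in the same order of colitic Tmem173iΔmye libraries, and the part of these cells was not tested.

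The fit over all 12 libraries tested whether the response to DSS differed between genotypes. It used the same libraries as the comparisons above and is no separate evidence. The interaction (response in Tmem173iΔmye minus that in Tmem173fl/fl) was below 0 for 34 of 35 genes, and 11 genes were called, where 1.61% of all tested genes were called lower. These were 6 identity genes, 4 angiogenic genes and Mcam. The largest were Esm1 (-3.58 ± 0.60, edgeR adjusted p = 0.00885), Angpt2 (-2.85 ± 0.39, adjusted p = 0.00495) and Nos3 (-2.30 ± 0.42, adjusted p = 0.013). Mcam, Flt1, Tie1, Robo4, Angpt2, Nos3 and Esm1 were called in all 12 fits that left out 1 library. Cdh5 was called in 10 of these 12 fits, Esam in 4, Vwf in 3 and Erg in 2. The count was 7 without untreated Tmem173fl/fl replicate 2 and 22 without colitic Tmem173iΔmye replicate 1, where 0.759% and 4.23% of all tested genes were called lower.

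No adhesion gene was called for the interaction by edgeR. At an unadjusted p under 0.05 in edgeR there were 2 of 5, where 4361 of the 24102 tested genes passed in either direction. DESeq2 called 1 adhesion gene, where it called 3.58% of all tested genes lower. Selp had a fitted interaction of -2.14 ± 0.60 (edgeR adjusted p = 0.0732), near that of Nos3, and was called in 4 of 18 alternatives. Vcam1 (-1.20 ± 0.52), Icam1 (-1.11 ± 0.54) and Madcam1 (-0.60 ± 0.59) had adjusted p from 0.243 to 0.643. Sele stood alone above 0 (1.72 ± 1.19, adjusted p = 0.477), with values from -0.53 to 3.57 over the alternatives, and its fitted response in Tmem173iΔmye mice rests on 1 read without DSS. A difference between adhesion genes and the other vessel genes in their interaction was not tested.

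**Figure D3:**
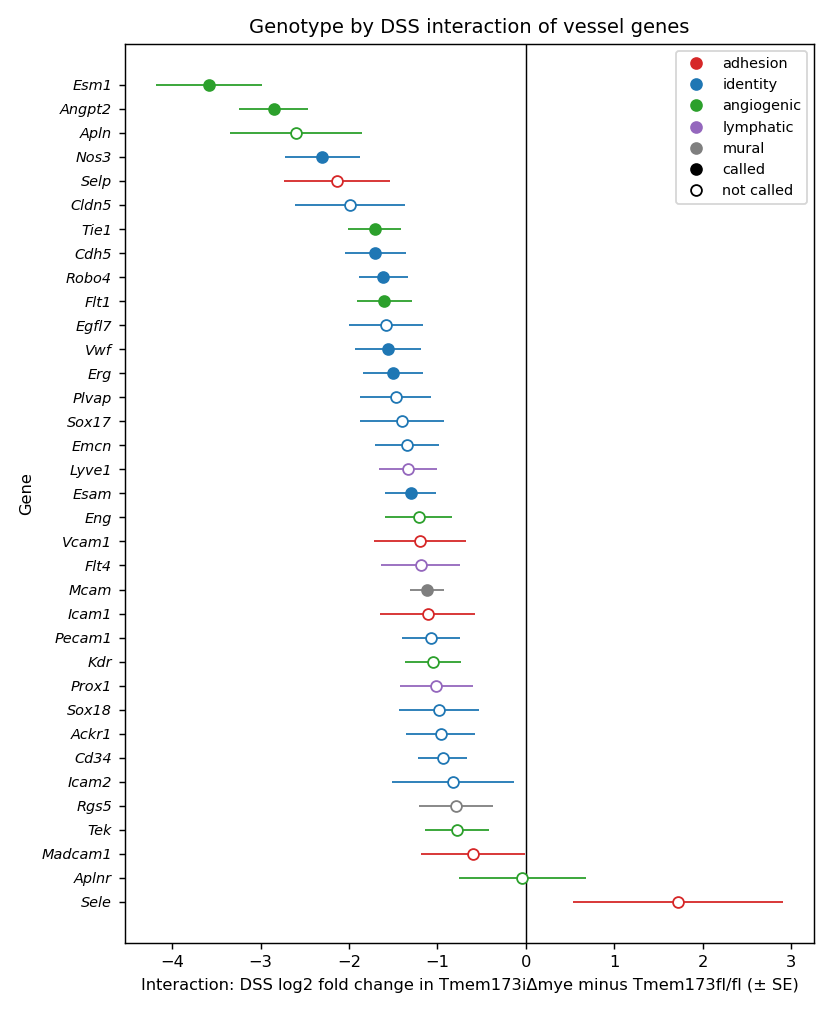
Interaction of genotype and DSS for each of the 35 genes (edgeR log2 scale, point and SE), in order of size, with the role in colour and filled points for called genes. Esm1 (-3.58) and Angpt2 (-2.85) lie farthest below 0, and Sele (1.72), with the widest error, is the only gene above it.

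The fitted response to DSS was smaller in Tmem173iΔmye than in Tmem173fl/fl mice for 34 of 35 genes, with Sele as the exception, though the difference passed the test for the 11 genes above alone. The ratio of the log2 fold changes (Tmem173iΔmye to Tmem173fl/fl) had a median of 0.42 over the 35 genes. By role it was 0.64 for adhesion (0.39 to 1.35), 0.41 for identity (0.15 to 0.53), 0.34 for angiogenic (0 to 0.9), 0.49 for lymphatic (0.41 to 0.55) and 0.37 for mural genes (0.29 to 0.45). The roles overlapped, and without Sele, whose response in Tmem173iΔmye mice rests on 1 read, the adhesion genes spanned 0.39 to 0.76. Icam1 was within the range of the identity genes, and Vcam1, Selp and Madcam1 were above it.

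**Figure D4:**
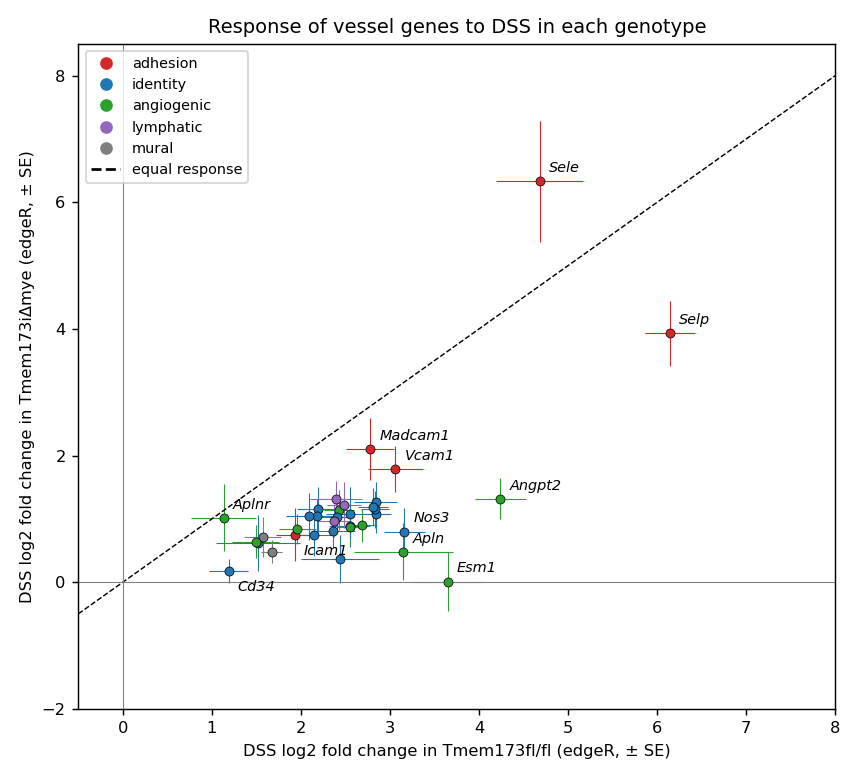
Log2 fold change by DSS in Tmem173fl/fl mice (horizontal axis) and in Tmem173iΔmye mice (vertical axis), edgeR, with SE on both axes and a dashed line of equal response. Of the 35 genes 34 lie below the line, most of them near 1 on the vertical axis, while Sele lies above it and Esm1 at 0.01 on the vertical axis.

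Adhesion and identity genes were also set against each other within each library, as the mean log2(FPKM + 0.1) of the 5 adhesion genes minus that of the 16 identity genes, a description with no test. It was -0.99 ± 0.17 (SD, n = 3) in untreated and 0.03 ± 0.15 in colitic Tmem173fl/fl mice, and -1.30 ± 0.18 in untreated and -0.09 ± 0.54 in colitic Tmem173iΔmye mice. All 3 colitic libraries exceeded all 3 untreated ones in each genotype, by 1.02 and 1.22 on average. The 3 colitic Tmem173iΔmye libraries were at 0.39, 0.03 and -0.68, of which the first was above, the second within and the third below the range of colitic Tmem173fl/fl mice (-0.08 to 0.20). Alternatives added after the data were seen left out the selectins. Without Sele the average increases were 0.99 and 1.01, again without overlap. Without Sele and Selp they were 0.23 and 0.51, and colitic and untreated libraries overlapped in both genotypes, though colitic Tmem173iΔmye replicates 1 and 2 (1.28 and 0.89) were above every untreated library of their genotype (0.15 to 0.40). With medians in place of means they were 0.67 and 0.61, and the separation was lost in Tmem173iΔmye mice, where colitic replicate 5 (-0.61) was below every untreated library (-0.60 to -0.21). With a pseudocount of 1 the same library (-0.49) was level, to 2 decimals, with untreated replicate 1 (-0.49).

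To describe each gene per amount of endothelial transcript, its log2(FPKM + 0.1) was taken relative to the mean of the 6 endothelial markers in the same library, a choice made after the data were seen. The geometric mean of the markers was 8.29 to 11 FPKM in colitic Tmem173fl/fl mice and 3.21 to 5.26 FPKM in colitic Tmem173iΔmye mice. Of the 29 genes outside the reference, 8 were higher without overlap after DSS in Tmem173fl/fl mice (1.55% of all tested genes) and 6 were lower (86.1%). In Tmem173iΔmye mice 5 were higher (1.28%) and 3 lower (53.4%). Selp was higher against the markers by 3.17 in Tmem173fl/fl and 2.44 in Tmem173iΔmye mice, without overlap in either genotype. Sele was also higher in every colitic library on this scale, but its untreated levels lie below the pseudocount of 0.1, which sets the size of its difference, and it entered only through the colitic groups. Angpt2 was higher by 1.69 in Tmem173fl/fl mice without overlap and by 0.29, with overlap, in Tmem173iΔmye mice. Esm1 differed by 1.04 in Tmem173fl/fl mice and by -0.85 in Tmem173iΔmye mice, without overlap in either. Vcam1 was higher by 0.57 without overlap in Tmem173fl/fl mice and by 0.72, with overlap, in Tmem173iΔmye mice. Madcam1 was higher by 0.34, with overlap, in Tmem173fl/fl mice and by 0.94 without overlap in Tmem173iΔmye mice. Icam1 overlapped in both genotypes (-0.47 and -0.36), and Cd34 was lower in both (-1.20 and -0.73).

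Between the colitic genotypes 5 of the 29 genes were lower relative to the markers without overlap (0.921% of all tested genes) and 4 were higher (68.2%). Those lower were Esm1 (-1.37), Angpt2 (-1.24), Selp (-0.79), Robo4 (-0.49) and Nos3 (-0.13). Sele, Vcam1, Icam1 and Madcam1 overlapped, with mean differences of 0.19, 0.10, 0.04 and 0.29. On this scale the colitic genotypes thus overlapped for the 4 adhesion genes other than Selp and were apart for Angpt2 and Esm1.

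**Figure D5:**
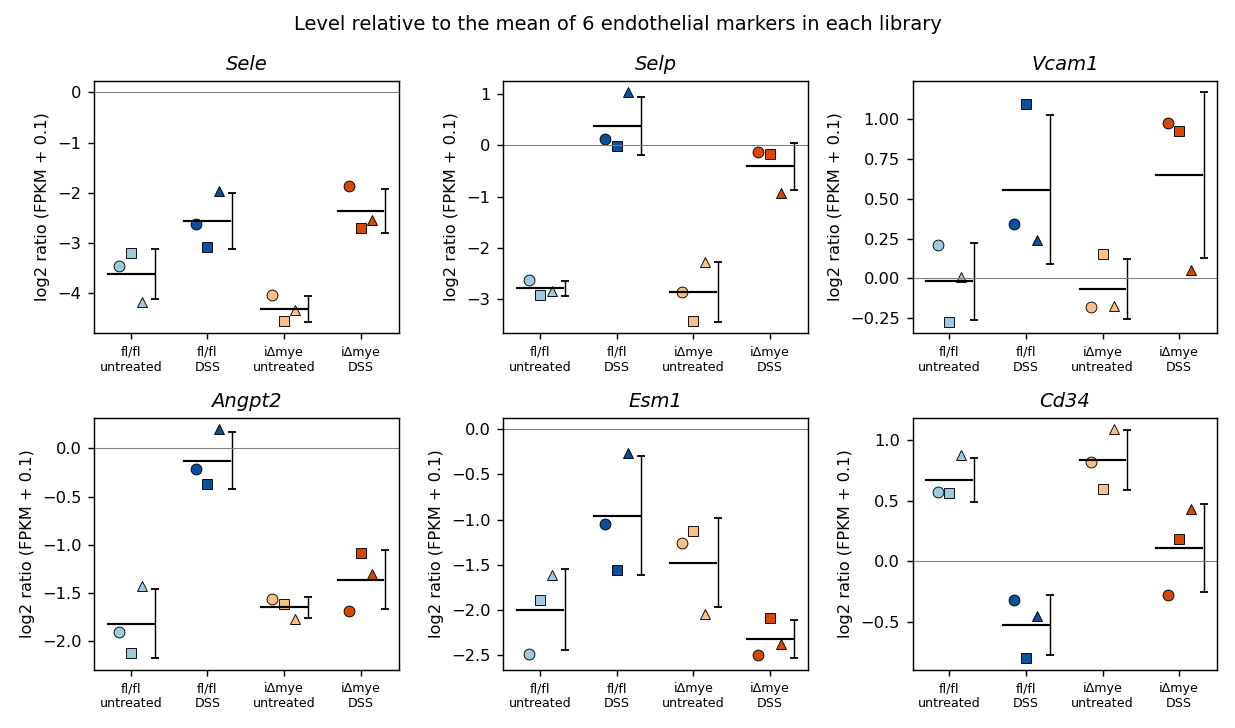
Level of 6 genes as log2(FPKM + 0.1) minus the mean over Pecam1, Cdh5, Tie1, Erg, Kdr and Emcn in the same library, with symbols as in the plot of adhesion genes by library and whiskers for the SD. Sele, whose untreated levels lie below the pseudocount, and Selp are higher with DSS in both genotypes, Angpt2 is higher without overlap only in Tmem173fl/fl mice, Esm1 is higher with DSS in Tmem173fl/fl and lower in Tmem173iΔmye mice, and Cd34 is lower with DSS in both.

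Genes that act with these vessel genes were followed in lists of general knowledge. The counts called higher with DSS in Tmem173fl/fl mice are to be read against the 14.9% of all tested genes called higher there, and those in Tmem173iΔmye mice against 1.48%. Of 13 VEGF, angiopoietin and PDGF ligands and co-receptors, 9 were called higher in Tmem173fl/fl mice and 0 in Tmem173iΔmye mice, with medians of 1.64 and 0.43. Pgf, placental growth factor and a ligand of Flt1, had the largest change (log2 fold change 4.34, edgeR adjusted p = 3.4e-05), followed by Pdgfrb (3.03), the PDGF receptor of pericytes and fibroblasts, and Vegfd (2.81), a ligand of Flt4. In colitis 2 were called lower in Tmem173iΔmye mice, against 1.99% of all tested genes, namely Pdgfrb (-1.94, adjusted p = 0.0381) and Angpt1 (-1.92, adjusted p = 0.0126), the ligand that Angpt2 opposes. Of 16 endothelial regulators and anticoagulant surface genes, 11 were called higher with DSS in Tmem173fl/fl mice and 0 were called in Tmem173iΔmye mice. Klf4 was the 1 called lower in Tmem173fl/fl mice, where 7.61% of all tested genes were. When the colitic genotypes were compared, Klf2, Thbd and Cd93 were called lower in Tmem173iΔmye mice (-1.55, -1.51 and -1.33), again against 1.99%. The log2 fold change of Klf4, which epithelial cells also express, was -1.27, beside a median of -1.14 for the epithelial markers, and their part was not tested. Thbd encodes thrombomodulin, an anticoagulant receptor, and Klf2 a factor induced by blood flow.

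The partners of the adhesion genes moved in both directions. Among leukocyte integrins and selectin ligand genes, whose share called higher with DSS in Tmem173fl/fl mice was not above the 14.9% of all tested genes, Itgam (2.89), the αM integrin of myeloid cells, was called higher, and 2 genes were called lower, where 7.61% of all tested genes were. These were St3gal4 (-2.20) and Chst4 (-1.25), enzymes that modify the glycans of selectin ligands. In Tmem173iΔmye mice, with 1.48% of all tested genes called higher, 1 was called, Itgam (1.52, edgeR adjusted p = 0.025). In colitis St3gal4 (1.85) and Chst4 (1.23) were called higher in Tmem173iΔmye mice, where 0.822% of all tested genes were. The fitted log2 difference of Itgam between the colitic genotypes was -1.03. St3gal4 and Chst4 fell and rose in the direction of the epithelial markers above, and the part of the epithelium was not tested. Of 9 junctional transmigration genes, 2 (Jam2 and Jam3) were called higher with DSS in Tmem173fl/fl mice. The 1 called lower, Fut4 (-2.27), is no junctional gene but a fucosyltransferase of selectin ligand glycans that the list held, and it too moved in the direction of the epithelial markers. Of 12 Notch and ephrin genes 2 were called higher there, with a median of 0.62. Both counts are near the 14.9% called higher among all tested genes. Neither list had a call in the comparisons of Tmem173iΔmye mice. Of 7 rows of other lymphatic genes, 4 were called higher in Tmem173fl/fl mice and 1 in Tmem173iΔmye mice (against 1.48% of all tested genes), Pdpn (1.30, adjusted p = 0.036), which fibroblasts also express.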

How the data were processed

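Total colon RNA was extracted with TRIzol, purified with lithium chloride and made into libraries with an NEBNext Ultra kit, as given in the labels. The authors deposited whole-number counts per gene and FPKM for each library, aligned to GRCm38 (mm10). The submitters' processing notes name CASAVA 1.8, fastp, HISAT2 2.0.5, featureCounts 1.5.0-p3 and DESeq2 1.20.0, and the strand setting is not given in the sources used here. The deposited table also holds the authors' normalized signal means per group, log2 fold changes and p-values of their own comparisons, which were not used. FPKM equalled the count divided by gene length, library total and 1 constant per library, so that both units carry the same depth.

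The sample titles gave the group and replicate number of each library, and a library is 1 mouse. Counts were tested in R 4.3.3 with edgeR 4.0.16 (glmQLFit and glmQLFTest, TMM), with only the groups compared in a fit and all 12 libraries for the interaction. Genes entered when 3 or more libraries were at 0.1 FPKM or above. The SE is the log2 fold change divided by the square root of F. Tests were tried on simulated data first. Alternatives were DESeq2 1.42.0, limma 3.58.1 on log2(FPKM + 0.1), RLE scaling, no filter, no minimum fold, 1 fit of all libraries, the replicate number as a block, and fits without 1 library. Exon overlaps were read from GENCODE annotation of GRCm38. The result of 1 gene in the lists is not reported here. The 35 genes and all lists were chosen with earlier results of these data known. Values in every library were given for the adhesion genes and, in each other role, for up to 6 called genes with the largest change.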

Additional observations from a re-analysis of the deposited data

Results flagged for a closer look

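The response to DSS differed between genotypes, by the interaction term of edgeR over all 12 libraries, for 11 of the 35 genes, where 1.61% of all tested genes were called lower. All 11 were below 0 (response in Tmem173iΔmye minus that in Tmem173fl/fl, log2). Among angiogenic genes the interaction was -3.58 for Esm1, -2.85 for Angpt2, -1.71 for Tie1 and -1.60 for Flt1. Among identity genes it was -2.30 for Nos3, -1.70 for Cdh5, -1.61 for Robo4, -1.56 for Vwf, -1.50 for Erg and -1.30 for Esam. For Mcam it was -1.12. Platelet markers, which include cells that also hold Vwf, summed to 56.1 to 87.4 FPKM in colitic Tmem173fl/fl and 9.25 to 11.9 FPKM in colitic Tmem173iΔmye mice, and their part was not tested.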

How the results depend on the processing

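The share of all tested genes called in the same direction is given in parentheses. The DSS response in Tmem173fl/fl mice was called for 33 to 35 genes under every other setting (12.3% to 19.5%). With each library left out it was called for 32 to 35 (12.7% to 15%). In Tmem173iΔmye mice 3 genes were called (1.48%), against 10 with no filter on low values (2.25%), 0 with limma (0.199%), 15 with DESeq2 (3.3%), 15 in 1 fit of all 12 libraries (3.03%) and 0 to 20 with each library left out (0.166% to 3.95%). Between colitic genotypes 13 were called (1.99%), against 5 with limma (0.427%), 22 in 1 fit of all 12 libraries (3.65%) and 1 to 24 with each library left out (0.0913% to 4.6%). For the interaction 11 were called (1.61%), against 21 with no filter (2.27%), 22 with DESeq2 (3.58%) and 7 to 22 with each library left out (0.73% to 4.23%). Calls among all genes thus moved with those among the vessel genes. No called gene changed direction under any alternative. The increase of adhesion over identity genes (1.02 in Tmem173fl/fl, 1.22 in Tmem173iΔmye mice) was 0.67 and 0.61 with medians, 0.48 and 0.55 with a pseudocount of 1, and 0.23 and 0.51 without Sele and Selp. It ran from 0.93 to 1.11 and from 0.98 to 1.51 with each library left out. The cause of these shifts was not tested. Depth limits mainly Sele, with 1 count in untreated Tmem173iΔmye mice.

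Same-numbered libraries did not deviate together (correlations from -0.08 to 0.108), and those with different numbers gave -0.27 to 0.185. No pairing by number was seen, though groups of 3 libraries cannot exclude it. With the replicate number as a block, 34 genes were called for DSS in Tmem173fl/fl mice (13.5% of all tested genes). Between untreated genotypes 0 were called. The colitic Tmem173iΔmye group held a replicate 5 and no replicate 3, and a block of a single library adds nothing to a contrast. The blocked response of Tmem173iΔmye mice to DSS (13 genes, 3.42%) thus rests on replicates 1 and 2 of each group. The same holds for the blocked comparison of genotypes in colitis (15 genes, 1.97%). In the blocked interaction (10 genes, 1.34%) replicate 5 carried no weight.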
